A study of Homo sapiens with 4 samples.

Results

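The inflammatory effector genes ICAM1, SOD2, LCN2, SAA1, SAA2, C3, CFB, PTGS2, LIF and IL6 were followed in human cell lines catalogued as oral squamous carcinoma. The cells were given the DNA-demethylating drug decitabine. These genes make up 10 of the gene names in a deposited table of 51103 genes, and they hold 11 entries there because SOD2 was listed under 2 identifiers. The genes were chosen by name, as adhesion, acute-phase, complement, cytokine and prostaglandin genes downstream of the transcription factor NF-kB, and with decitabine ratios from earlier results of these same libraries known. The decitabine values of the 10 genes are therefore a description, and no test of them is used as evidence. The line differences come from these same libraries, so they too describe these libraries.

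The cells were SCC15 and CAL27, both catalogued as tongue carcinoma lines. Cell type markers, given below, went against the squamous label in the libraries labelled SCC15. Each line was grown in 1 culture with 10 µM decitabine (5-aza-2'-deoxycytidine, a cytidine analogue that traps DNA methyltransferases) and in 1 culture with the solvent DMSO, for 48 h. The 4 groups were SCC15 with decitabine, SCC15 with DMSO, CAL27 with decitabine and CAL27 with DMSO, and the labels name no genetic change in any. A single library was made per group, so nothing here can be checked against a repeat culture. Total reads counted per library lay between 14524461 and 17583706, and a count of 0 allowed up to 3 reads, or 0.179 to 0.214 CPM (reads scaled to a common library total by TMM). Mitochondrial genes took 1.52% of the reads in SCC15 with decitabine and 7.6% in SCC15 with DMSO, and 4.28% in CAL27 with decitabine and 7.24% in CAL27 with DMSO, and the part of that difference in the ratios below was not tested.

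NF-kB is held in the cytoplasm by inhibitor proteins until receptors for interleukin 1, tumour necrosis factor or microbial products start their breakdown. It then enters the nucleus and binds short kappa B sites in the promoters of adhesion molecules, cytokines, complement factors and antimicrobial proteins. Interleukin 6, one such product, signals through STAT3 and, together with the C/EBP factors, drives the acute-phase proteins of the liver. In squamous epithelium the same genes are switched on during wounding and infection, and many carcinoma lines express some of them without a stimulus.

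The promoters are shown because NF-kB binds kappa B sites and DNA methylation, the process that decitabine blocks, falls on CG dinucleotides. RefSeq sequence of GRCh38.p14 was matched for 6 of the 10 genes, in 9 windows, 4 of them for SOD2. SAA1, SAA2, C3 and LIF were not matched. In the 250 bases before each start, both strands were searched for the kappa B consensus, exactly and with 1 mismatch, for TTNNGNAA, a C/EBP-type motif, and for TATAAA. Stretches with kappa B matches follow for the 5 genes with a single window, 5′ to 3′ on the strand of the gene, with the match or the overlapping matches in capitals.
ICAM1, chr19:10270921-10270955, plus strand: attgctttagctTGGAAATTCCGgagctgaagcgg
LCN2, chr9:128149265-128149299, plus strand: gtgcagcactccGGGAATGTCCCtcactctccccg
CFB, chr6:31945898-31946004, plus strand: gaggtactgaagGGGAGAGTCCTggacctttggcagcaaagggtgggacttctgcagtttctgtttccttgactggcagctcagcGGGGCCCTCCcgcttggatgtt
PTGS2, chr1:186680625-186680660, minus strand: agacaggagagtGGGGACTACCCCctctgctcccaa
IL6, chr7:22727115-22727149, plus strand: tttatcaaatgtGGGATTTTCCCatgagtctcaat
An exact match was found in LCN2 and IL6, against 5.20% of 34941 RefSeq promoters. ICAM1, CFB and PTGS2 matched with 1 mismatch, as 44.9% of all promoters did. Of the 4 SOD2 windows, 2 held a match with 1 mismatch. LCN2, PTGS2, IL6 and 1 SOD2 window held TTNNGNAA, which 33.2% of promoters held, and ICAM1, CFB and PTGS2 held TATAAA, which 10.8% held. A match of letters is a description and not a binding site.

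The same promoters differed in CG content, and ICAM1 and LCN2 are printed for that contrast, with every CG in capitals over the 250 bases before the start.
ICAM1, chr19:10270870-10271119, plus strand: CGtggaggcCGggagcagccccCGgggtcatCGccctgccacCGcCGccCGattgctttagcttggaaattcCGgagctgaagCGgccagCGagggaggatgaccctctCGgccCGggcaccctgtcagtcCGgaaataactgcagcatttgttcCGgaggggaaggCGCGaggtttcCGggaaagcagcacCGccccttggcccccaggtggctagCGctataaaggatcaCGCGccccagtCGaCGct
LCN2, chr9:128149203-128149452, plus strand: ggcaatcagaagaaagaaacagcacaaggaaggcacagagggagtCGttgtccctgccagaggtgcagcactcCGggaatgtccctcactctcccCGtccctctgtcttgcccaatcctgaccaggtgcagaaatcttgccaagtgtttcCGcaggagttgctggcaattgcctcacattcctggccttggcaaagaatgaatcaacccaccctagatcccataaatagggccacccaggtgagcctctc
ICAM1 held 23 CG dinucleotides, more than 74.2% of all promoters, whose median was 11. LCN2 and IL6 held 4 each, more than 29.4% of promoters, while CFB held 7 and PTGS2 held 9. The SOD2 windows held 19 to 35. Methylation itself was not measured here, so the state of these CGs in either line was not tested.

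Most of these genes stood at clearly different levels in the lines. Of the 10 genes, 8 were lower in SCC15 than in CAL27 and PTGS2 was higher, by edgeR's quasi-likelihood test on both treatments with Benjamini-Hochberg adjustment over all 15427 genes tested. In the same test 22.7% of all genes were lower in SCC15 and 21.6% were higher. LIF was the gene of the 10 that did not pass. LCN2, SAA1, SAA2, CFB and IL6 had enough reads to be tested only because of CAL27. For them a call could only be lower in SCC15, so nothing is read from the count of 8. The same limit holds for genes of the marker and pathway lists below that were tested only because of 1 line. With 1 culture per line and treatment, these p-values speak of these cultures, and the spread behind them is moderated across genes.

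**Figure D1:**
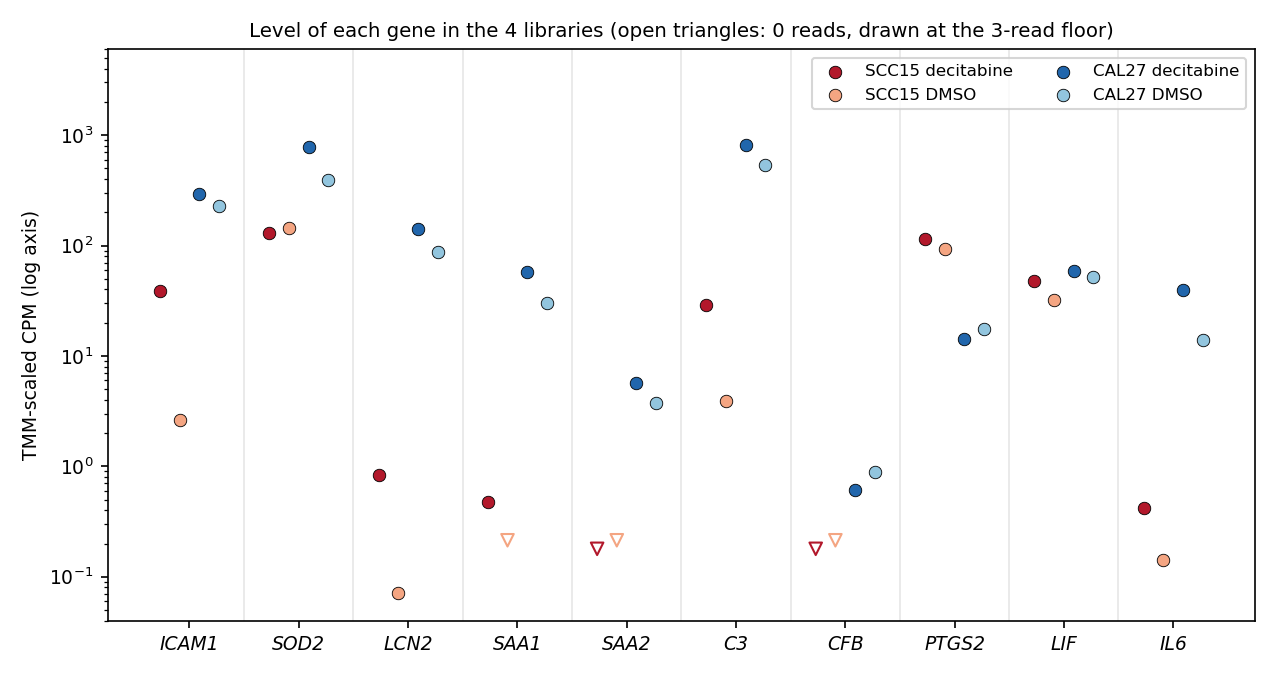
TMM-scaled CPM on a log axis for each of the 10 genes in SCC15 with decitabine, SCC15 with DMSO, CAL27 with decitabine and CAL27 with DMSO, 1 library each, with open triangles for 0 reads drawn at the 3-read floor. PTGS2 is the gene whose SCC15 points lie above its CAL27 points, the LIF points lie close together, and the points of the other genes are lower in SCC15.

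Per length, the SCC15 cells with DMSO were led by PTGS2 at 16.7 FPKM, SOD2 at 8.34 and LIF at 7.63. ICAM1 was at 0.673 FPKM and C3 at 0.445 in that library, and the other 5 genes were under 0.1. The CAL27 cells with DMSO were led by C3 at 64.8 FPKM, ICAM1 at 61.3, LCN2 at 54.5 and SAA1 at 38.1, followed by SOD2 at 23.8, LIF at 13.2 and IL6 at 6.76. PTGS2 was at 3.35 FPKM, SAA2 at 1.70 and CFB at 0.179 in CAL27 with DMSO. With 1 library there is no spread to separate neighbours in either order. FPKM divide by the whole exon length, which for SOD2 includes long alternative ends.

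LCN2, the siderophore-binding protein lipocalin 2, had the widest line difference of the 8 genes with reads in SCC15, a log2 fold of -8.01 ± 0.45 for SCC15 over CAL27 (SE of the fit, adjusted p = 2.29e-17). SAA1, an acute-phase apolipoprotein, followed at -7.53 ± 0.54 (adjusted p = 1.71e-14), and IL6 at -6.55 ± 0.54 (adjusted p = 5.8e-13). C3, the central complement component, was at -5.87 ± 0.42 (adjusted p = 1.71e-14) and ICAM1 at -4.47 ± 0.48 (adjusted p = 5.71e-10). SOD2, the mitochondrial superoxide dismutase, was at -2.00 ± 0.31 (adjusted p = 1.77e-06).

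SAA2, a near copy of SAA1, had 0 reads in both SCC15 libraries and was at least 49.3-fold lower there than in CAL27 (adjusted p = 1.9e-07). CFB, the protease precursor of the alternative complement pathway, also had 0 reads in both SCC15 libraries and was at least 7.67-fold lower (adjusted p = 0.00429). These bounds set the floor of 3 reads over the SCC15 libraries. The CFB call rested on 10 reads in CAL27 with decitabine and 13 in CAL27 with DMSO and was lost with DESeq2 (adjusted p = 0.186) and with limma on log2(FPKM + 1) (adjusted p = 0.109). PTGS2, the inducible cyclooxygenase that starts prostaglandin synthesis, went the other way at 2.71 ± 0.31 (adjusted p = 1.87e-09). LIF, a cytokine of the interleukin 6 family, was at -0.50 ± 0.29 (adjusted p = 0.161).

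**Figure D2:**
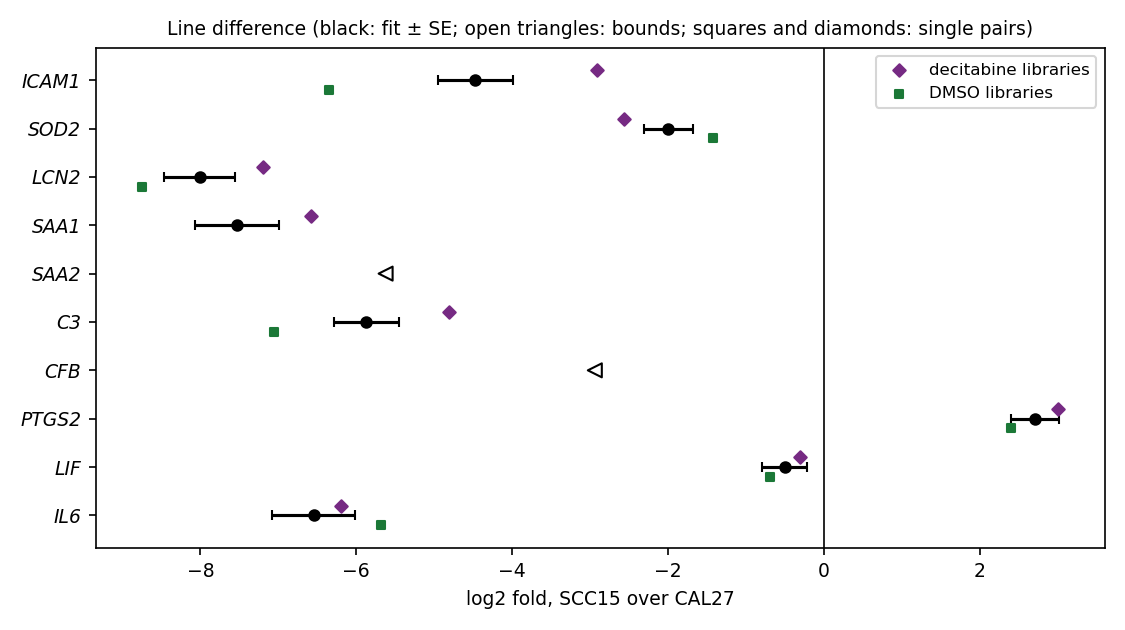
Log2 fold of SCC15 over CAL27 for each gene on the x axis, with the fit over both treatments and its SE in black, the decitabine libraries alone as diamonds, the DMSO libraries alone as squares, and bounds for SAA2 and CFB as open triangles. Among the 7 genes with both single-pair points, ICAM1 has the widest gap between diamond and square, and PTGS2 is the gene to the right of 0.

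The gap between the lines was not the same under both treatments for every gene. For ICAM1 the log2 ratio of SCC15 over CAL27 was -2.90 among the decitabine libraries and -6.35 among the DMSO libraries. For C3 it was -4.82 with decitabine and -7.05 with DMSO. SOD2 went the other way, at -2.57 with decitabine and -1.42 with DMSO, while IL6 stood at -6.20 and -5.69 in the same order. With 1 library per group these differences were not tested.

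The lines also differed in markers of cell type. Those of squamous epithelium summed to 603 CPM in SCC15 with decitabine and 609 in SCC15 with DMSO. They summed to 2180 in CAL27 with decitabine and 2410 in CAL27 with DMSO. Of these sums PERP gave 491, 564, 418 and 379 CPM in that order. The other 13 of the 14 tested were lower in SCC15, where 22.7% of all genes were. Of the 15 squamous markers, 5 were at 0 reads in SCC15 with decitabine and 10 in SCC15 with DMSO. The basal keratin gene KRT5 had 1 read in SCC15 with decitabine and 0 in SCC15 with DMSO, and 8359 in CAL27 with decitabine and 8054 in CAL27 with DMSO. Fibroblast and mesenchymal markers were higher in SCC15 for 7 of 11 tested and lower for 2. Of 10 neuroendocrine markers 6 were tested, of which 5 were higher in SCC15 and 1 was lower. Of all genes 21.6% were higher and 22.7% lower. The chromogranin gene CHGA had 2429 reads in SCC15 with decitabine, 1040 in SCC15 with DMSO and 0 in either CAL27 library. The libraries labelled SCC15 thus went against the squamous label, and SCC15 stands for those libraries throughout.

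Among other cell types, leukocyte markers summed to 91.6, 72, 60.2 and 64.7 CPM in SCC15 with decitabine, SCC15 with DMSO, CAL27 with decitabine and CAL27 with DMSO. Of these sums LAPTM5 gave 70.5, 65.6, 25.3 and 35.4 CPM, and the pan-leukocyte gene PTPRC had 0 reads in every library. Endothelial markers summed to 3.99, 1.43, 52.4 and 47.9 CPM in that order, of which CDH5 gave 48.3 in CAL27 with decitabine and 45.8 in CAL27 with DMSO. Hepatocyte markers, of which 0 of 10 had enough reads to be tested, summed to at most 0.617 CPM. General epithelial markers summed to 2390, 1590, 2330 and 2800 CPM, mostly from KRT8 and KRT18, while 8 of the 11 tested were lower in SCC15 and 0 were higher. The adhesion gene CDH1 had 1 and 4 reads in SCC15 with decitabine and DMSO, and 3911 and 2727 in CAL27. The part of cell identity in the levels of the 10 genes was not tested.

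ICAM1 (ENSG00000090339, chromosome 19, 10270835 to 10286615, GRCh38), which encodes the ligand that leukocyte integrins grip during adhesion, had the widest treatment ratio in SCC15 among the 5 of the 10 genes with a CPM of at least 1 there. It had 654 reads in SCC15 with decitabine and 37 in SCC15 with DMSO, or 38.9 and 2.64 CPM. In CAL27 it had 4749 reads with decitabine and 3297 with DMSO, or 292 and 226 CPM. The value was higher with decitabine in both lines, by 14.7-fold in SCC15 and 1.29-fold in CAL27, and both SCC15 libraries stayed below both CAL27 libraries. The 95% counting intervals of the log2 ratio, 3.40 to 4.40 in SCC15 and 0.31 to 0.43 in CAL27, cover counting error only, since reads amplified by PCR without molecular identifiers are not independent molecules. In RNA from whole cultures, fewer cells that express a gene and less RNA per cell cannot be told apart.

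Among genes with a CPM of at least 1 in either SCC15 library, the ICAM1 ratio ranked 34 of 13894. In CAL27 it ranked 3096 of 14238. An antisense gene, AC011511.5, covers 22.0% of the ICAM1 exon bases and had at most 2 reads in any library. The strand setting of the counting is not given in the sources used here, so reads of the pair cannot be told apart.

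**Figure D3:**
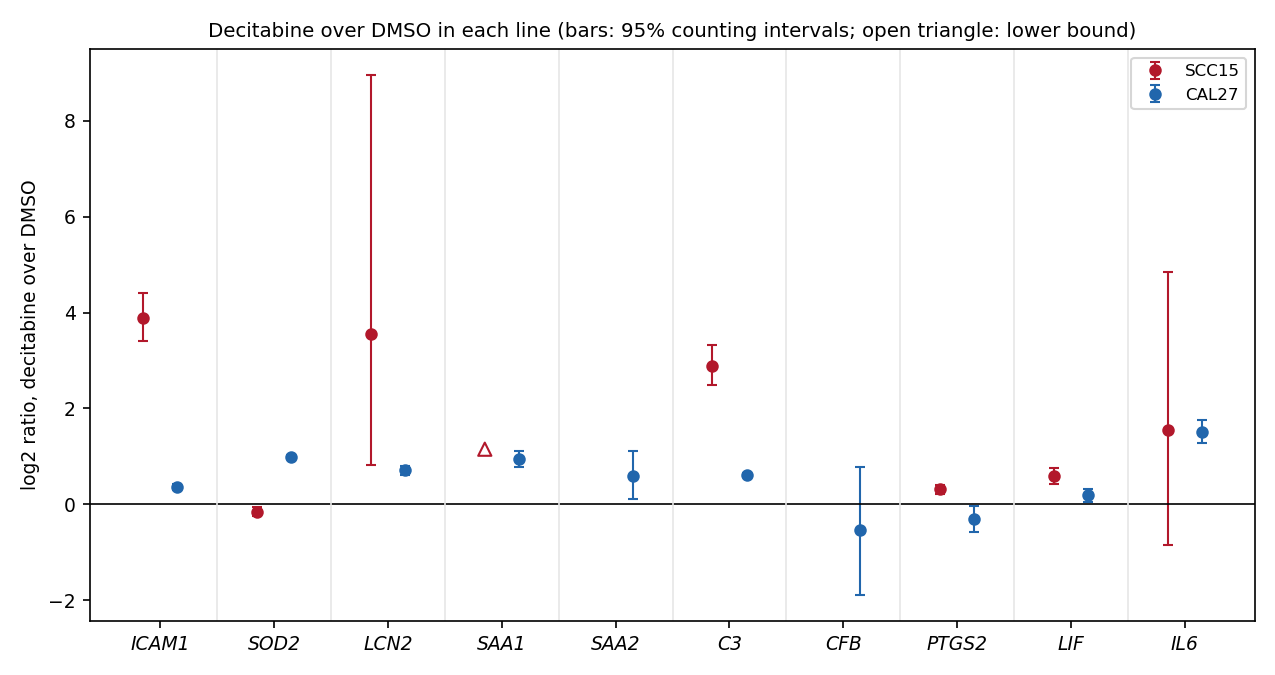
Log2 ratio of decitabine over DMSO for each gene, SCC15 and CAL27 side by side, with 95% counting intervals as bars and a lower bound for SAA1 in SCC15 as an open triangle. ICAM1 and C3 lie far above 0 in SCC15 with narrow bars, the LCN2 and IL6 bars in SCC15 are wide because they rest on 14 against 1 and 7 against 2 reads, and SOD2 and PTGS2 have opposite signs in the lines.

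The acute-phase genes had few reads in SCC15. LCN2 (ENSG00000148346, chromosome 9, 128149071 to 128153455) had 14 reads in SCC15 with decitabine and 1 in SCC15 with DMSO, and 2302 with decitabine and 1264 with DMSO in CAL27. SAA1 (ENSG00000173432, chromosome 11, 18266174 to 18269977) had 8 and 0 reads in SCC15 with decitabine and DMSO, and 944 and 441 in CAL27 with decitabine and DMSO. SAA2 (ENSG00000134339, chromosome 11, 18239223 to 18248643) had 0 reads in both SCC15 libraries, and 93 with decitabine and 55 with DMSO in CAL27. All 3 were higher with decitabine in CAL27, and their SCC15 libraries held at most 14 reads.

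In CAL27 the folds were 1.63 for LCN2, 1.92 for SAA1 and 1.52 for SAA2, with log2 counting intervals of 0.61 to 0.81, 0.78 to 1.11 and 0.11 to 1.11. In SCC15 the LCN2 ratio was 11.7-fold with a log2 interval of 0.83 to 8.95, and SAA1 was at least 2.22-fold higher, against the floor of 3 reads in the DMSO library. Beside these low counts, squamous markers abundant in CAL27, chosen here after their values were seen, varied in SCC15. KRT5 had 1 read with decitabine and 0 with DMSO in SCC15, TP63 had 24 and 0, and SFN had 33 and 2, in the same order. PKP1 went the other way with 4 and 15, and DSG3, DSC3 and KRT6A had 0 and 0. The part of such markers in the SCC15 ratios was not tested. The coding sequences of SAA1 and SAA2 are 97.0% identical over 369 bases, with an identical run of 186, so the split of reads between them is uncertain. The readthrough gene SAA2-SAA4, which covers 12% of the SAA2 exon bases, had 0 reads.

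The complement genes C3 and CFB stood at very different counts. C3 (ENSG00000125730, chromosome 19, 6677704 to 6730562) had 489 reads in SCC15 with decitabine and 55 in SCC15 with DMSO. In CAL27 it had 13362 reads with decitabine and 7841 with DMSO, the highest count of the 10 genes in each of those libraries. C3 was 7.42-fold higher with decitabine in SCC15, with a log2 interval of 2.49 to 3.32, and 1.53-fold higher in CAL27, with an interval of 0.57 to 0.65. CFB (ENSG00000243649, chromosome 6, 31945650 to 31952084) had 0 reads in both SCC15 libraries, and 10 with decitabine and 13 with DMSO in CAL27, under 1 CPM. Its CAL27 log2 interval of -1.88 to 0.77 spans 0. A readthrough gene, AL645922.1, covers 45% of the CFB exon bases and had 0 reads, and counting may drop reads that fall on both.

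The cytokines IL6 and LIF share the receptor chain gp130. IL6 (ENSG00000136244, chromosome 7, 22725884 to 22732002) had 7 and 2 reads in SCC15 with decitabine and DMSO, and 648 and 203 in CAL27 with decitabine and DMSO. In CAL27 it was 2.87-fold higher with decitabine, the widest CAL27 ratio of the 10 genes, with a log2 interval of 1.29 to 1.75. In SCC15 the ratio of 2.92-fold had a log2 interval of -0.85 to 4.85, so a change was not detectable at this depth. An antisense gene, AC073072.1, covers 20.7% of the IL6 exon bases and had at most 8 reads in any library.

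LIF (ENSG00000128342, chromosome 22, 30240447 to 30246851) had 808 and 449 reads in SCC15 with decitabine and DMSO, and 963 and 759 in CAL27 with decitabine and DMSO. Its folds were 1.50 in SCC15 and 1.14 in CAL27, with log2 intervals of 0.42 to 0.76 and 0.05 to 0.33. After scaling, its 4 libraries lay between 32.0 and 59.3 CPM, the narrowest span in fold among the genes with reads in all 4.

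The enzymes SOD2 and PTGS2 had ratios of opposite sign in the lines. SOD2 (ENSG00000112096, chromosome 6, 159669057 to 159745186) had 2200 reads in SCC15 with decitabine and 2040 in SCC15 with DMSO, which after scaling were 131 and 146 CPM. In CAL27 it had 12617 reads with decitabine and 5691 with DMSO, or 777 and 390 CPM. SOD2 was 1.99-fold higher with decitabine in CAL27, with a log2 interval of 0.95 to 1.04, and 0.90-fold in SCC15, with an interval of -0.24 to -0.07. The second SOD2 identifier, ENSG00000285441, had at most 5 reads in any library and was not tested.

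PTGS2 (ENSG00000073756, chromosome 1, 186671791 to 186680427) had 1936 reads in SCC15 with decitabine and 1302 in SCC15 with DMSO, or 115 and 92.9 CPM. In CAL27 it had 231 reads with decitabine and 256 with DMSO, or 14.2 and 17.6 CPM. The ratio was 1.24-fold in SCC15, with a log2 interval of 0.21 to 0.41, and 0.81-fold in CAL27, with an interval of -0.57 to -0.04. The difference between the lines was not tested for either enzyme.

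Counted over the 10 genes, 7 of the 8 with reads in SCC15 and 8 of 10 in CAL27 had a ratio above 0, where 52.8% and 49.9% of all tested genes did. The median log2 ratio was 1.61 over the 8 genes in SCC15 and 0.60 over the 10 in CAL27, against 0.05 and 0.00 over all genes tested. Tested markers of cell types also had medians above 0 in SCC15, at 0.71 for squamous, 0.95 for general epithelial, 1.04 for mesenchymal, 1.17 for leukocyte, 1.15 for endothelial and 0.78 for neuroendocrine markers. These medians rest on 14, 11, 11, 6, 3 and 6 tested genes in that order. In CAL27 the same lists had medians of -0.08, 0.14, 0.20, -0.03, 1.08 and 0.29. Of these markers 1 was called in the edgeR fit, the collagen gene COL1A1 (log2 fold 2.13 ± 0.39, adjusted p = 0.00435), and DESeq2 called 0. COL1A1 is named because it was called, so its p-value is a description. The part of these markers in the ratios of the 10 genes was not tested. A ratio of at least 2-fold up at a CPM of at least 1 was reached by 2 genes in SCC15, ICAM1 and C3, where 13.3% of genes were past that fold upward and 6.2% downward. In CAL27 it was reached by IL6 alone, where 5.14% of genes were past it upward and 1.29% downward. The values just inside and just outside in CAL27 were IL6 at a log2 ratio of 1.51 and SOD2 at 0.99. LCN2, SAA1 and IL6 in SCC15 had log2 ratios of at least 1 at under 1 CPM. Since the genes were chosen with these ratios known, nothing is read from these counts.

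In a fit of decitabine over both lines, ICAM1 had a shared log2 fold of 1.92 ± 0.46 and C3 of 1.64 ± 0.37 (SE moderated across genes). These 2 lay past the threshold, as 0.544% of all 15427 genes did upward and 0.0778% did downward. The values took part in the choice of the genes, so nothing is read from that count. SAA1 stood at 1.21 ± 0.46, IL6 at 1.51 ± 0.47 and LCN2 at 1.02 ± 0.38, and the other 5 genes were between -0.51 and 0.59. The shared value for ICAM1 joins a ratio of 3.82 in SCC15 with one of 0.37 in CAL27. Its SE is drawn mostly from other genes and reflects that gap only in part.

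Over all genes the ratios followed transcript GC, with Spearman's rho of 0.496 in SCC15 and 0.248 in CAL27 across genes, which are not independent replicates. In SCC15 the median log2 ratio was 0.58 in the decile of genes highest in GC and -0.49 in the lowest, and in CAL27 it was 0.24 and -0.09. ICAM1, LIF, LCN2 and C3 have transcripts of 56.5% to 56.9% GC, whereas PTGS2 has 36.9% and SOD2 41.7%. With the trend removed, the SCC15 log2 ratio was 3.33 for ICAM1, 2.38 for C3 and 1.77 for LCN2. LIF came to 0.10 in SCC15 and PTGS2 to 0.80, and the sign of SOD2 turned to 0.08. In CAL27 the values after removal were 1.59 for IL6, 1.08 for SOD2 and 0.24 for ICAM1. The shared log2 fold was then 1.64 for ICAM1 and 1.40 for C3, and neither lay past the threshold.

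**Figure D4:**
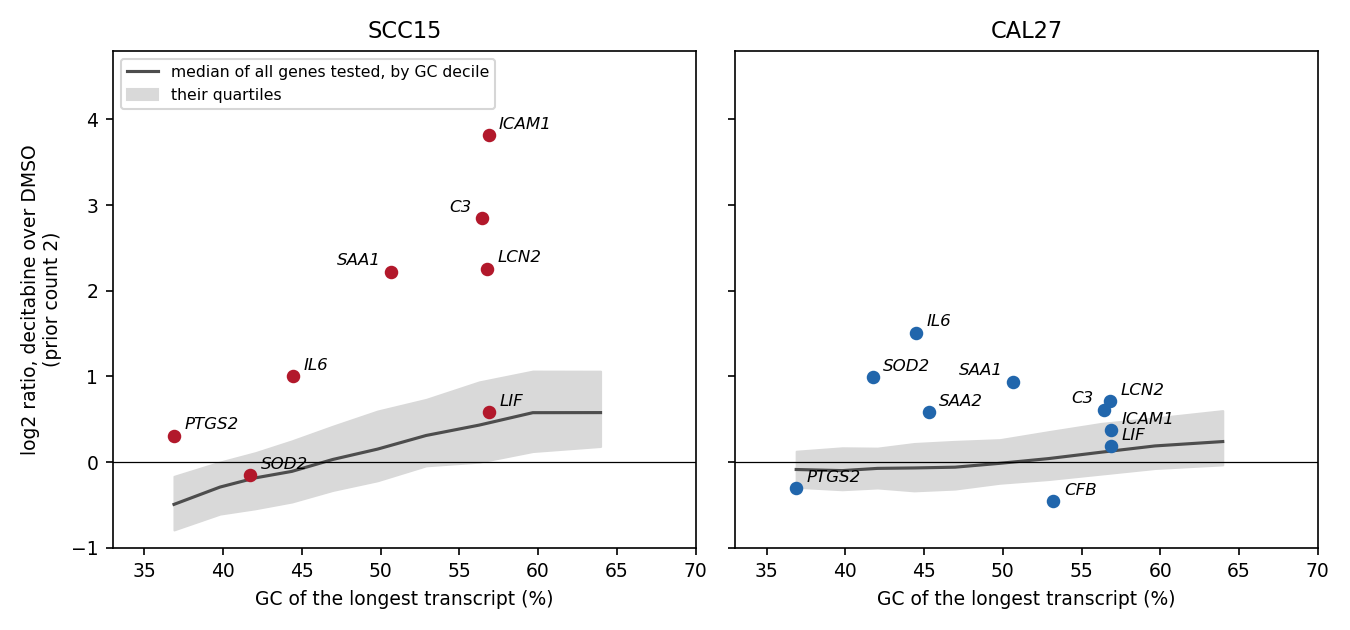
Log2 ratio of decitabine over DMSO (y axis, prior count of 2) against the GC percentage of the longest transcript (x axis), SCC15 left and CAL27 right, with each gene as a point and the median and quartiles of all tested genes by GC decile as a line and band. ICAM1, C3 and LCN2 lie above the band in SCC15, as do SAA1, IL6 and PTGS2, while LIF and SOD2 lie within it there, and in CAL27 IL6, SOD2, SAA1, SAA2, LCN2 and C3 lie above it.

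Across the 4 libraries, the profile closest to that of ICAM1 was CSF2, the gene of the growth factor GM-CSF, at a Euclidean distance of 0.387 in centred log2 CPM over 14415 genes searched. CSF2 had 151 and 7 reads in SCC15 with decitabine and DMSO, and 1028 and 1007 in CAL27 with decitabine and DMSO. MYO7A followed at 0.568, WNT10A at 0.578, PLEKHA6 at 0.615 and the cytokine gene IL32 at 0.618. IL32 had 69 and 1 reads in SCC15 with decitabine and DMSO, and 539 and 422 in CAL27. Of the other genes of the 10, CFB was too low to be searched, and among those searched C3 came nearest to ICAM1 at 1.48 and PTGS2 was farthest at 7.75. Over 4 libraries such a distance is a description of these libraries.

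Genes around the 10 were read from lists of their regulators, partners and pathways. For the 30 regulators upstream, all tested, 2 were past the threshold upward with decitabine and 0 downward, where 0.544% and 0.0778% of all genes were. The list's medians were 0.78 in SCC15 and 0.21 in CAL27, and 18 were above 0 in both lines. The lists were chosen with earlier results of these data known, so nothing is read from these counts. CEBPD and IL1B are named because they passed, so their adjusted p-values in that fit are a description and not evidence. CEBPD, a C/EBP factor of the acute-phase response, had 498 and 125 reads in SCC15 with decitabine and DMSO, and 243 and 49 in CAL27, a shared log2 fold of 1.93 ± 0.38 (adjusted p = 0.0067). IL1B, the gene of interleukin 1 beta, had 87 and 1 reads in SCC15 and 4084 and 2082 in CAL27 with decitabine and DMSO, a shared log2 fold of 1.82 ± 0.44 (adjusted p = 0.04). Neither passed with DESeq2 (adjusted p = 0.0565 for CEBPD and 0.356 for IL1B) or with the trend of transcript GC removed (0.0584 and 0.0989). The IL1B fold was 4.72 with the SCC15 pair alone and 0.82 with the CAL27 pair alone. IRAK1, a kinase of interleukin 1 signalling, had log2 ratios of 0.92 in SCC15 and -0.50 in CAL27. CEBPB had 0.43 and 0.67, and NFKBIA, the inhibitor that NF-kB itself induces, 0.84 and 0.76 in the same order. Of the 30, 15 were lower in SCC15 than in CAL27 and 3 were higher, and IL1B had a log2 fold of -6.74 for SCC15 over CAL27 (adjusted p = 4.47e-14). These list counts of the line difference, and those below, stand beside 22.7% of all genes lower in SCC15 and 21.6% higher.

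**Figure D5:**
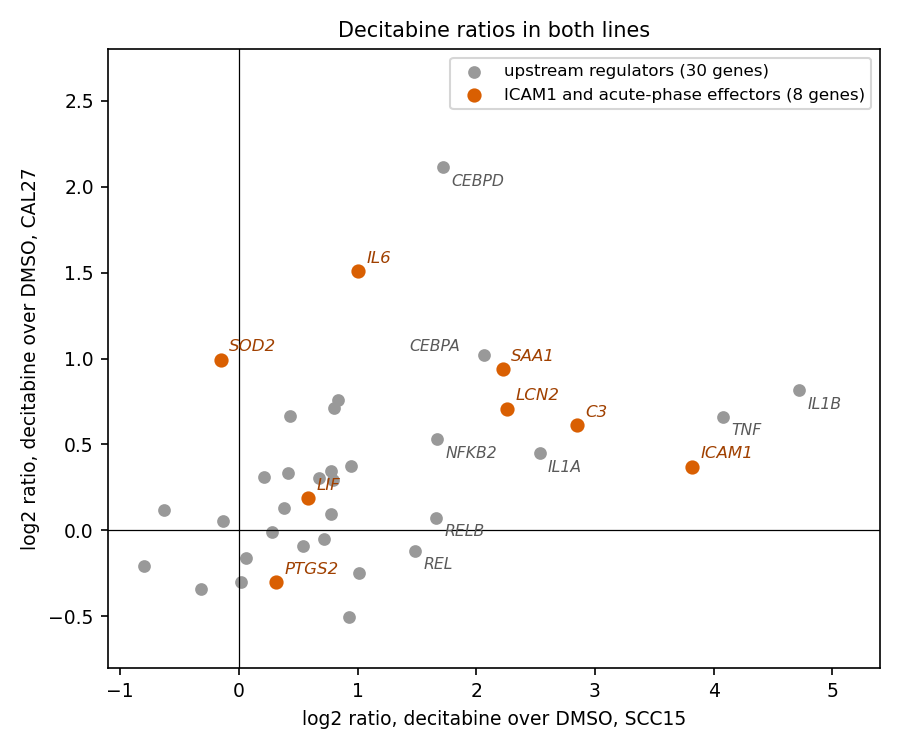
Log2 ratio of decitabine over DMSO in SCC15 (x axis) against CAL27 (y axis) for the 30 upstream regulators in grey and the 8 genes with reads in both lines in orange. ICAM1 lies near IL1B and TNF, with ratios above 3 in SCC15 and under 1 in CAL27, and SOD2 and PTGS2 lie in the quadrants of opposite sign. In SCC15 the IL1B ratio rests on 87 against 1 reads. That of TNF, a gene named after its values were seen, rests on 55 against 1.

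None of the other 7 lists had a gene past the threshold with decitabine by edgeR in either direction. At an unadjusted p under 0.05 each had between 1 and 4 higher and 0 lower. Of all 15427 genes, 1200 were higher and 397 lower at that p, and nothing is read from the counts of the lists. DESeq2 called 1 gene higher, in the list of superoxide and peroxide enzymes. Of the 22 adhesion genes listed beside ICAM1, 13 were tested, with medians of 0.90 in SCC15 and 0.16 in CAL27. The hyaluronan receptor CD44 had 20065 and 16408 reads in SCC15 with decitabine and DMSO, and 23427 and 34366 in CAL27. EZR and MSN, which link membrane proteins to actin, had log2 ratios of 0.37 and 0.90 in SCC15 and -0.24 and -0.26 in CAL27. Of the 13, 6 were lower in SCC15 than in CAL27 and 2 higher.

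Of 23 further acute-phase genes, 3 had enough reads to be tested. PTX3, a long pentraxin, had 1166 and 290 reads in SCC15 with decitabine and DMSO, and 526 and 375 in CAL27. SERPINA1, the protease inhibitor antitrypsin, had 44 and 0 reads in SCC15 and 1115 and 759 in CAL27 with decitabine and DMSO, and a log2 fold of -5.85 for SCC15 over CAL27 (adjusted p = 6.65e-12). SLPI, an inhibitor of leukocyte proteases, had 0 reads in both SCC15 libraries, and 147 with decitabine and 56 with DMSO in CAL27. Of the 3, 2 were lower in SCC15 and 0 higher.

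Of 17 complement genes tested, 9 were lower in SCC15 than in CAL27 and 3 higher, and their decitabine medians were 0.28 in SCC15 and 0.31 in CAL27. CLU, a chaperone that restrains the terminal complex, had a log2 fold of -3.56 for SCC15 over CAL27 (adjusted p = 8.81e-12). CD59 and CD46, which protect cells from their own complement, had log2 ratios of -0.05 and -0.59 in SCC15 and -0.26 and 0.32 in CAL27.

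Of 17 tested genes of prostaglandin synthesis, transport and reception, 9 were higher in SCC15, as PTGS2 was, and 5 were lower. PTGES, the inducible synthase that acts next after PTGS2 to make prostaglandin E, had 2323 and 1525 reads in SCC15 with decitabine and DMSO, and 213 and 56 in CAL27. Its log2 fold for SCC15 over CAL27 was 4.06 (adjusted p = 2.07e-12). PTGES2 and PTGES3, the constitutive synthases, had log2 ratios with decitabine of 0.48 and -0.49 in SCC15 and -0.07 and -0.28 in CAL27. The constitutive cyclooxygenase gene PTGS1, named after its values were seen, went against PTGS2, with 0 and 1 reads in SCC15 and 1581 and 926 in CAL27 with decitabine and DMSO. The list's decitabine medians were 0.37 in SCC15 and 0.41 in CAL27.

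Of 18 tested genes of the interleukin 6 family and its signalling, 10 were lower in SCC15 than in CAL27 and 1 higher, with decitabine medians of 0.53 in SCC15 and 0.02 in CAL27. For SCC15 over CAL27 the log2 fold was -1.22 for the receptor kinase gene JAK1 (adjusted p = 0.000684) and -1.12 for the phosphatase gene PTPN11 (adjusted p = 0.00152). Of 17 superoxide and peroxide enzymes tested, 3 were higher and 4 lower in SCC15, where 21.6% and 22.7% of all genes were. Their decitabine medians were 0.09 in SCC15 and 0.17 in CAL27. PRDX5, a peroxiredoxin, had log2 ratios of 1.19 in SCC15 and 1.02 in CAL27. PRDX1 had -0.37 and -0.09, and thioredoxin, TXN, -0.91 and 0.17 in the same order.

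Of 12 receptors and partners of lipocalin 2 and serum amyloid A, 6 were tested, 3 of them higher and 2 lower in SCC15, with decitabine medians of 0.58 in SCC15 and 0.00 in CAL27. TLR4, the receptor of bacterial lipopolysaccharide, had a log2 fold of 3.36 for SCC15 over CAL27 (adjusted p = 3.77e-11). TLR2, which recognises bacterial lipoproteins, was at -4.88 (adjusted p = 2.36e-09) and SCARB1, a receptor of high-density lipoprotein, at -1.75 (adjusted p = 4.26e-06).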

How the data were processed

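RNA of 4 cultures was sequenced. Per the labels' protocols, the cells were lysed in Trizol and the NEBNext Ultra RNA kit was used. The authors deposited whole-number read counts per gene and FPKM values for each library. HISAT2, HTSeq 0.13.5 and GRCh38 were used, per the submitters' processing notes. Settings of the aligner, strand handling in counting and the annotation version were not given in the sources used here. Gene coordinates, exons and GC content came from GENCODE release 29.

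Counts were scaled with TMM and tested in R 4.3.3 with edgeR 4.0.16 (quasi-likelihood, terms for cell line and treatment, minimum count 10, minimum total 15), which left 15427 genes and 1 residual degree of freedom. The pairing by cell line comes from the labels. The common biological coefficient of variation was 0.234 and the prior degrees of freedom were 36.1, so the spread comes mostly from other genes. P-values were adjusted by Benjamini-Hochberg at 0.05. Ratios within a line have no test. They used a prior count of 2 and, to be counted, a CPM of at least 1. Counting intervals are exact conditional binomial intervals at 95%. The fit was tested on simulated data. Alternatives used DESeq2 1.42.0, limma 3.58.1, other scaling, filters and pseudocounts, removal of the GC trend, and each line or treatment alone.

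The 10 genes and the gene lists were chosen with earlier results of these data known. The genes named from each pathway list were those past the decitabine threshold and the 3 with the highest mean FPKM, and beside ICAM1 the 5 with the nearest profile. A gene that this rule names is not reported here.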

Additional observations from a re-analysis of the deposited data

Results flagged for a closer look

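SOD2 and PTGS2 had decitabine ratios of opposite sign in the lines. For SOD2 the log2 ratio was -0.153 in SCC15 and 0.993 in CAL27. For PTGS2 it was 0.31 in SCC15 and -0.301 in CAL27. With 1 library per group the difference between the lines was not tested, and the sign of SOD2 in SCC15 turned when the trend with transcript GC was removed.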

How the results depend on the processing

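With decitabine, 96 genes were called over all genes in the fit of both lines. The count was 339 with total-count scaling (93.5% higher, against 87.5% at first), 176 with no filter on low counts, 34 with the GC trend removed, 30 with DESeq2 (66.7% higher), 2 with limma on log2(FPKM + 1) and 0 with no replicate block for the cell line (20 higher and 3 lower at an unadjusted p under 0.05). Of the 10 genes, 2 were called higher at first, and 0 with DESeq2, with the GC trend removed, with limma on log2(FPKM + 1) and with no replicate block. Total-count scaling added IL6 and limma on log2(FPKM + 0.1) added SAA1. The cause was not tested. Past the fold in CAL27 there was 1 gene at first, 3 with total-count scaling, 3 with the ratio of FPKM + 0.1 and 2 with the GC trend removed. Total-count scaling shifted the CAL27 median of all genes to 0.13.

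With 1 line left out, the shared fold equals the other line's ratio. It ranged from 0.37 to 3.82 for ICAM1 and from 0.61 to 2.85 for C3. It turned to -0.153 for SOD2 with the SCC15 pair alone (0.993 with CAL27) and to -0.301 for PTGS2 with the CAL27 pair alone (0.31 with SCC15). The SOD2 ratio in SCC15 turned to 0.083 with the GC trend removed.

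The line difference kept its direction for the 10 genes under every alternative run. The highest adjusted p over the alternatives was 0.0105 for ICAM1, 0.00203 for SOD2 and 0.000758 for C3, and no more than 0.000424 for LCN2, SAA1, SAA2, PTGS2 and IL6. CFB ranged from 0.00158 to 0.186 and LIF from 0.0521 to 0.323. CFB was not tested with the filter of 30 reads. In SCC15, counts of at most 14 reads limit what can be said of LCN2, SAA1, SAA2, CFB and IL6. These genes were tested only because of their CAL27 reads, so the direction of their call was fixed.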

Other observations

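OSMR and LIFR, receptor chains for cytokines of the interleukin 6 family, were chosen after their values were seen. OSMR had 5 and 0 reads in SCC15 with decitabine and DMSO, and 3948 and 2757 in CAL27 with decitabine and DMSO. LIFR, the chain that binds LIF, had 152 and 15 reads in SCC15 and 786 and 814 in CAL27 in the same order. Its log2 ratio with decitabine was 2.94 in SCC15 and -0.21 in CAL27. SLC22A17, described as a lipocalin 2 receptor, was also chosen after its values were seen. It had 136 and 32 reads in SCC15 with decitabine and DMSO and 0 in both CAL27 libraries, where LCN2 itself was high.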
